A study of Mus musculus with 67 samples.

Results

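The 200 rows described here stood higher in cultured microglia from Orai1 knockout (KO) mice than in cultures from wild-type (WT) mice. They were also picked to stay within 1 of vehicle on a log2 scale with either stimulus. The deposited tables hold 45707 rows each and carry no gene names, so a row is called by its position, counted from 1 below the header. A row was kept if K, the mean of log2(CPM + 1) in KO vehicle cultures minus that in WT vehicle cultures, was at least 1.5, and if LPS and Tg+PDBu each moved that mean by no more than 1 in either direction within WT and within KO. CPM is a row's count scaled by the total count of its library. The 1123 rows that passed were ordered by K and the first 200 were kept. The rows were thus chosen by their genotype and stimulus differences in culture, which are given as a description without a test.

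Orai1 is the pore-forming subunit of the store-operated calcium channel of the plasma membrane, which opens when the endoplasmic reticulum calcium sensor STIM1 reports that the stores have emptied. Calcium that enters this way activates calcineurin and the transcription factor NFAT in immune cells, microglia among them. LPS, a bacterial cell wall component, acts through Toll-like receptor 4. Thapsigargin (Tg) blocks the pump that fills the stores and so opens the channel, and PDBu, a phorbol ester, turns on protein kinase C.

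WT cells carried loxP-flanked Orai1 alleles (Orai1 fl/fl), and KO cells carried the same alleles with the tamoxifen-inducible Cx3CR1-cre/ERT2, which is expressed from the regulatory sequences of a gene active in microglia and other macrophages. Cre was present in KO cells only, so an effect of Orai1 loss cannot be told apart from one of the Cre. Cultures were made from the hippocampus of neonates 2 to 5 days old, received OH-tamoxifen at 1 µM in both genotypes, and were treated for 6 h with vehicle (DMSO), LPS at 10 ng/ml, or Tg at 0.2 µM with PDBu at 50 nM. There were 34 culture libraries from 6 WT and 7 KO cultures, in 12 groups by genotype, sex and treatment; 10 groups had 3 libraries, and KO females with LPS and with Tg+PDBu had 2. Sorted microglia came from the whole brain of mice 10 to 12 weeks old that all received tamoxifen on 5 days, 30 to 35 days before an injection of PBS (vehicle) or LPS at 1 mg/kg. They gave 33 libraries in 10 groups of 3 or 4, with vehicle and LPS for 24 h in both sexes and LPS for 6 h in males only. The labels do not say which mouse or pool of mice stands behind each library, so p-values measure the spread between these samples, some of which may be technical.

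Libraries held 7868694 to 16070721 counts in culture and 4989974 to 7596706 in sorted cells. Without names, neither Orai1 nor the defining markers of microglia, astrocytes, neurons or other cells could be read, so the genotype and cell type labels of these libraries were not checked here. The lists of markers, store-operated calcium genes and NFAT genes drawn up for this work were not used for the same reason, and no sequence could be assigned to a row. The culture labelled WT female 3 stood apart: 2 rows that were at 5 CPM or more in every sorted male library and at 1 CPM or less in every sorted female library reached 0.386 to 0.563 of their mean male-culture level in its 3 libraries, against 0 to 0.0414 in the other 13 female culture libraries. Neither row is among the 200. In sorted males at 6 h of LPS, WT replicate 3 and KO replicate 1 lay nearer to vehicle than the other 4 libraries. On an axis over all rows tested, on which the vehicle mean of that genotype's males is 0 and their 24 h mean is 1, they stood at 0.351 and 0.283, and the other 4 at 0.744 to 0.862.

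Of 1958 rows with K of at least 1.5, 835 responded to a stimulus by more than 1 in at least 1 genotype, which left the 1123. Among the 200, K ran from 2.56 to 3.72 with a median of 2.74, and 27 rows had a K of at least 3. The last row inside the limit of 200 was row 5243, with a K of 2.5605, and the first outside it was row 16659, with 2.5594. At the lower bound of the rule, row 1297 passed at 1.5012 and row 9463 failed at 1.4995.

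In linear terms the 200 rows were 5.29 to 22.0 times higher in KO than in WT vehicle cultures by their mean CPM, with a median of 7.31. Together they took 2237 ± 1163 CPM in the 6 WT vehicle libraries (mean ± SD), with a lowest of 1282, a median of 1931 and a highest of 4196. In the 6 KO vehicle libraries they took 15837 ± 3637 CPM, with a lowest of 9606, a median of 17315 and a highest of 18645. The lowest KO sum was 2.29 times the highest WT sum, a gap that the rule favoured. In bulk RNA, more cells of one kind and more RNA per cell cannot be told apart.

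**Figure D1:**
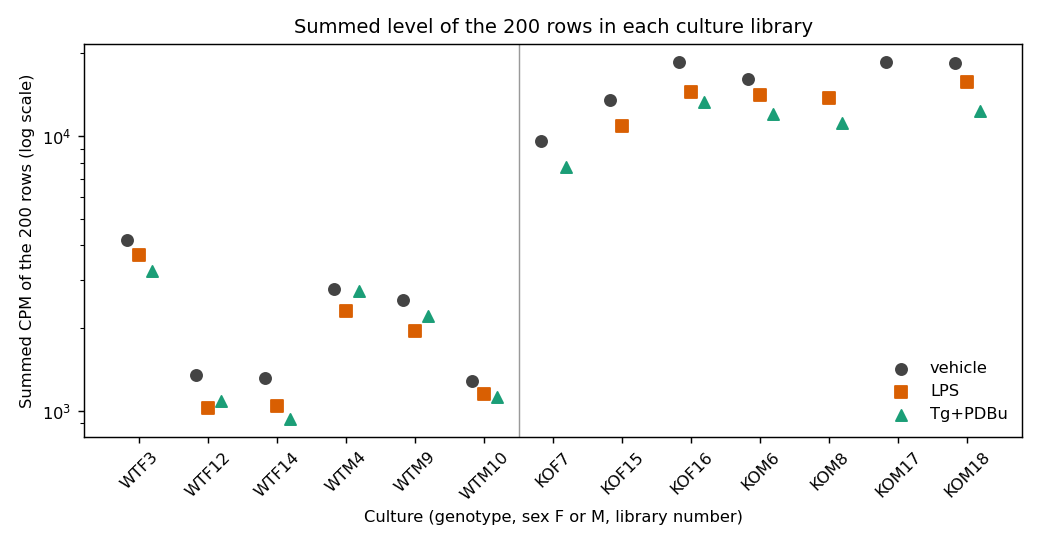
Summed CPM of the 200 rows (y axis, log scale) in each of the 34 culture libraries, by culture (x axis), with vehicle as circles, LPS as squares and Tg+PDBu as triangles. The 18 WT libraries lie between 934 and 4196 CPM and the 16 KO libraries between 7734 and 18645 CPM.

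With a stimulus, the rule itself kept KO minus WT near K, since it held both genotypes within 1 of vehicle; these values are a description. With LPS the rows summed to 1855 ± 1041 CPM in 6 WT libraries and to 13809 ± 1803 CPM in 5 KO libraries, a ratio of 7.44. With Tg+PDBu the sums were 1884 ± 974 CPM (n = 6) and 11317 ± 2152 CPM (n = 5), a ratio of 6.01, beside 7.08 with vehicle. Row by row, KO minus WT had a median of 2.82 with LPS (1.64 to 3.72) and of 2.48 with Tg+PDBu (1.20 to 3.90) on the log2(CPM + 1) scale. The medians over all 15979 rows tested in culture were 0.16 with vehicle, 0.49 with LPS and 0.31 with Tg+PDBu.

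The lowest KO library lay above the highest WT library for 193 of the 200 rows with vehicle, where 23.1% of all rows tested did so. With LPS this held for 195 rows, against 35.1% of all rows tested, and with Tg+PDBu for 187 rows, against 33.7%. The rule fixed the direction and most of this separation, so nothing is read from these counts.

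Row 2913 had the largest K, 3.72. Its lowest, median and highest CPM were 3.54, 8.57 and 18.3 in WT vehicle cultures and 80.6, 131 and 176 in KO vehicle cultures. The genotypes did not overlap, and the KO value stayed at 88.9 to 182 CPM with LPS and fell no lower than 43.7 CPM with Tg+PDBu. Row 3697, with a K of 3.65, ran from 2.15 to 7.40 CPM in WT and from 35.3 to 89.0 CPM in KO vehicle cultures. The most abundant rows in KO vehicle cultures were row 8830, at 819 ± 196 CPM against 142 ± 71.3 CPM in WT, and row 11511, at 732 ± 288 against 99.9 ± 49.6 CPM (n = 6 each). For both rows the lowest KO library (559 and 304 CPM) lay above the highest WT library (278 and 157 CPM). No single row carried the sum in KO vehicle cultures, where the largest gave 5.17% of it and the largest 10 gave 28.5%.

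The cultures of a genotype differed among themselves. The 6 WT cultures differed by 3.27 times in the summed CPM with vehicle, by 3.61 times with LPS and by 3.46 times with Tg+PDBu, and the KO cultures by 1.94, 1.45 and 1.72 times. Within a culture the highest treatment was 1.14 to 1.41 times the lowest in WT and 1.24 to 1.49 times in KO, a spread that the rule limited. WT female culture 3 was the highest WT culture in all 3 treatments, at 4196, 3682 and 3228 CPM. WT male replicate 2 came next, at 2297 to 2769 CPM, then WT male replicate 3, at 1951 to 2519 CPM. The other 3 WT cultures lay at 934 to 1342 CPM. The 3 highest WT cultures thus kept their order under every treatment.

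Row by row, WT female culture 3 was the highest WT library for 169 of the 200 rows with vehicle (84.5%, against 31.2% of all rows tested), for 151 with LPS (75.5%, against 35.5%) and for 134 with Tg+PDBu (67%, against 29.7%). This is the culture in which the male-specific rows were present, and whether their presence went with the level of the 200 rows was not tested. Without it, the WT vehicle sum was 1845 ± 735 CPM (n = 5), the ratio of KO to WT rose from 7.08 to 8.58, and the median K rose from 2.74 to 2.92.

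Among KO cultures, female culture 7 was the lowest, at 9606 CPM with vehicle and 7734 CPM with Tg+PDBu; it had no LPS library. It was the lowest KO library for 149 of the 200 rows with vehicle (74.5%, against 27.8% of all rows tested) and for 140 with Tg+PDBu (70%, against 33.1%). The other 5 KO vehicle libraries lay between 13575 and 18645 CPM. This lowest KO culture stood above every WT culture, an order that the rule favoured.

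The median K was 2.59 in females and 2.91 in males, and no row fell under 1.5 in either sex. K is the mean of the female and male values, so the rule itself favoured a high K in each sex. K was higher in females for 32 of the 200 rows. This order rested on WT female culture 3: without it, the female median was 3.07 and K was higher in females for 125 rows. No share over all rows was computed beside these counts. Summed over the rows, KO vehicle females took 13942 ± 4530 CPM and males 17733 ± 1332 CPM (n = 3 each). Males were also tested against females in vehicle cultures, averaged over the genotypes, a contrast the rule did not use. WT female culture 3 counted as female, and libraries from the same culture as independent. By edgeR's quasi-likelihood test with Benjamini-Hochberg adjustment over all rows, 0 of the 200 passed an adjusted p of 0.05, against 0.0125% of all rows. Unadjusted p was under 0.05 for 2 of the 200 (1%, against 2.69% of all rows), and DESeq2 called 0. The lowest adjusted p among them was 1.00, for row 10786, which was higher in males by 0.75 ± 0.29 (log2 fold change ± SE).

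Most of the 200 rows were below vehicle in each stimulus response. The vehicle mean of KO cultures, by which the rows were chosen for being high, is also the baseline of the KO responses, which favours values below it, so nothing is read from these signs. With LPS, 161 rows were below vehicle in WT (median -0.30) and 171 in KO (median -0.25). Of all rows tested, 76.2% were below in WT (median -0.35) and 66.3% in KO (median -0.13). With Tg+PDBu, 136 rows were below vehicle in WT (median -0.20) and 178 in KO (median -0.52). Of all rows tested, 62.1% were below in WT (median -0.15) and 59.2% in KO (median -0.13). In KO with Tg+PDBu only 88 of the 200 stayed within 0.5 of vehicle, against 148 to 165 in the other 3 responses, and 52 rows stayed within 0.5 in all 4. Seen as sums in matched cultures, LPS took the rows to 0.760 to 0.894 of vehicle in 6 WT cultures and to 0.779 to 0.875 in 4 KO cultures. Tg+PDBu took them to 0.711 to 0.983 of vehicle in 6 WT cultures and to 0.672 to 0.805 in 4 KO cultures. In each culture measured with both, the summed level was lower with the stimulus.

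In sorted microglia the sums did not separate the genotypes. The rows took 2436 ± 592 CPM in 6 WT vehicle libraries (lowest 1772, median 2437, highest 3422) and 2108 ± 367 CPM in 6 KO vehicle libraries (lowest 1544, median 2183, highest 2625). After 24 h of LPS the sums were 1714 ± 400 CPM in 8 WT libraries and 1750 ± 138 CPM in 7 KO libraries. After 6 h they were 2719, 1885 and 2781 CPM in WT and 2169, 2442 and 2678 CPM in KO males. The genotypes overlapped at each time, and KO over WT was 0.865, 1.02 and 0.987 in that order. Culture libraries were made from 100 ng of polyA RNA and sorted libraries from 0.97 ng of total RNA with another kit, and the tables were scaled apart, so levels are set side by side across them without a test.

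**Figure D2:**
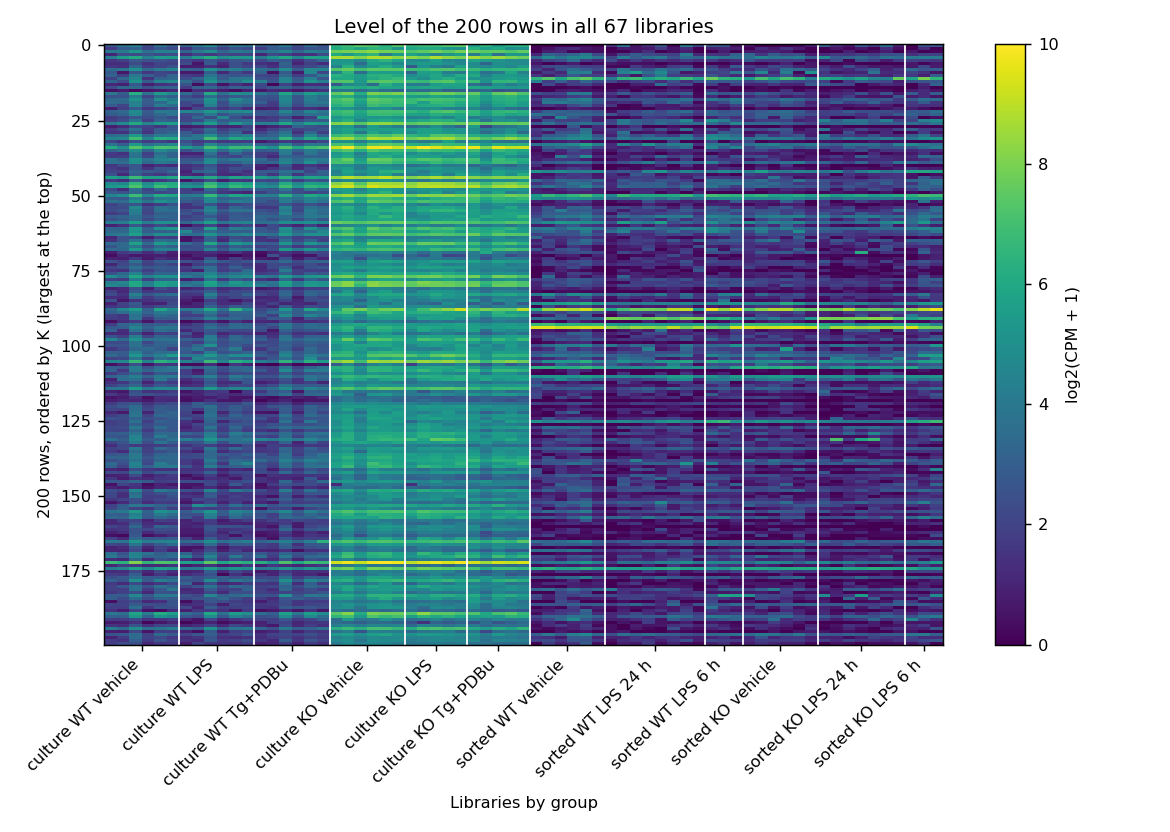
Level of each of the 200 rows (y axis, ordered by K) in all 67 libraries (x axis, by group), in log2(CPM + 1) from dark (0) to bright (10). KO culture libraries are brighter than WT culture libraries in every treatment, and the sorted WT and KO blocks look alike, with a few bright rows such as row 8572 at 639 CPM in sorted WT vehicle libraries.

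The rows were detected in sorted cells, but mostly at a low level. All 200 had a count in at least 1 of the 33 sorted libraries, 109 had one in every library, and 4 had one in fewer than 10. No share over all rows was computed beside these counts. The median level of the 200 rows was 2.79 CPM in sorted WT and 2.05 CPM in sorted KO vehicle libraries, beside 6.63 CPM in WT and 46.3 CPM in KO vehicle cultures. In sorted WT vehicle libraries 151 of them reached 1 CPM, 30 reached 10 CPM and 3 reached 100 CPM. Ranked among all rows with counts in the same table, the median row stood at percentile 64.6 in WT cultures, 82.2 in KO cultures, 63.2 in sorted WT cells and 61.1 in sorted KO cells with vehicle. The bases of these ranks differ, with 28306 rows in culture and 32089 in sorted cells. The rule also favoured a low level in WT vehicle cultures. With these limits, sorted cells of both genotypes lay near the WT cultures by percentile.

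**Figure D3:**
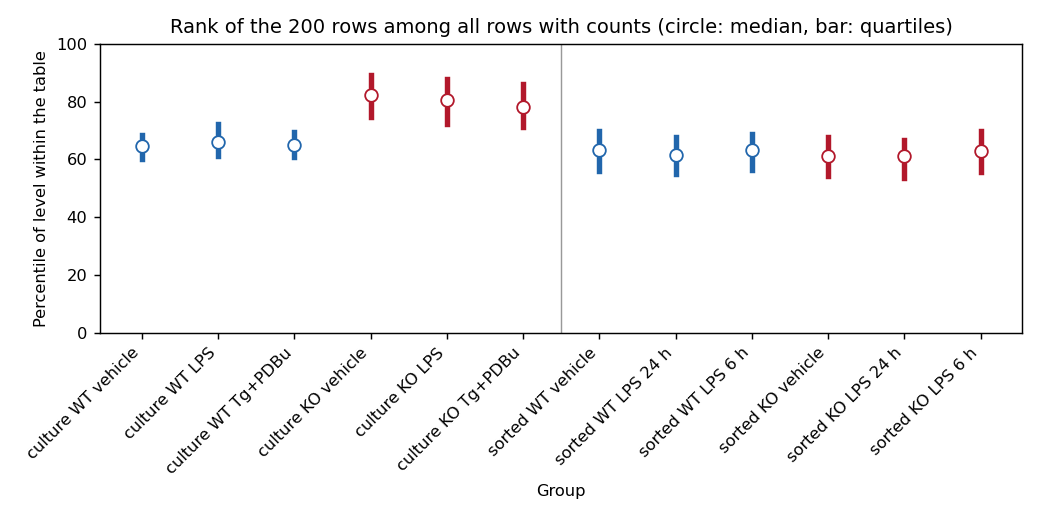
Percentile of the 200 rows by mean CPM among all rows with counts in the same table (y axis) in each genotype and treatment (x axis), with the median as a circle and the quartiles as a bar, WT in blue and KO in red. The medians lie at 78.1 to 82.2 in the 3 KO culture groups and at 61.1 to 66.1 in the other 9 groups.

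Some rows were more abundant in sorted cells than in culture. No share over all rows was computed for the counts that follow, and the rule favoured a low level in WT cultures. The mean CPM of 44 rows was higher in sorted WT vehicle libraries than in WT vehicle cultures, and for 6 rows it was higher than in KO vehicle cultures too. Row 8572 led them, with 548, 642 and 727 CPM (lowest, median, highest) in sorted WT and 566, 645 and 772 CPM in sorted KO vehicle libraries. With vehicle in culture, WT cells had 11.5 ± 5.72 CPM of it and KO cells 78.6 ± 22.2 CPM. The sorted genotypes overlapped throughout, with a log2 fold change of 0.07 (95% interval -0.55 to 0.69, edgeR). Row 3673 followed, at 386 ± 200 CPM in sorted WT and 295 ± 136 CPM in sorted KO vehicle libraries (n = 6 each), with single libraries from 77.3 to 659 CPM in WT. Row 8572 alone gave 26.2% of the summed CPM of the 200 in sorted WT vehicle libraries, and the largest 10 rows gave 65.4%, so the sorted sums speak mostly for a few rows.

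Across all 200, KO minus WT in sorted vehicle libraries had a median of -0.20 on the log2(CPM + 1) scale, with 58 rows above 0 and 142 below. Over the 15344 rows tested in sorted cells the median was -0.03, and 44.1% were above 0. After 24 h of LPS the median was -0.08, with 79 above and 121 below, and after 6 h in males it was -0.03, with 93 above and 106 below. Over all rows tested these medians were 0.01 and -0.01, with 51.8% and 48.2% above 0. By their median, rows chosen for being higher in KO cultures lay, if anything, on the WT side with vehicle and after 24 h. This lean was not tested. After 6 h the split of the 200 rows was near that of all rows. The median with vehicle stayed below 0 when any single vehicle library was left out, at -0.29 to -0.10. Within a library, the median CPM of the 200 rows was 3.67 and 4.26 in WT male vehicle replicates 1 and 2. It was 1.16 to 2.40 in the other WT vehicle libraries and 1.04 to 2.27 in the KO vehicle libraries. Leaving out both of those WT male libraries together was not done.

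**Figure D4:**
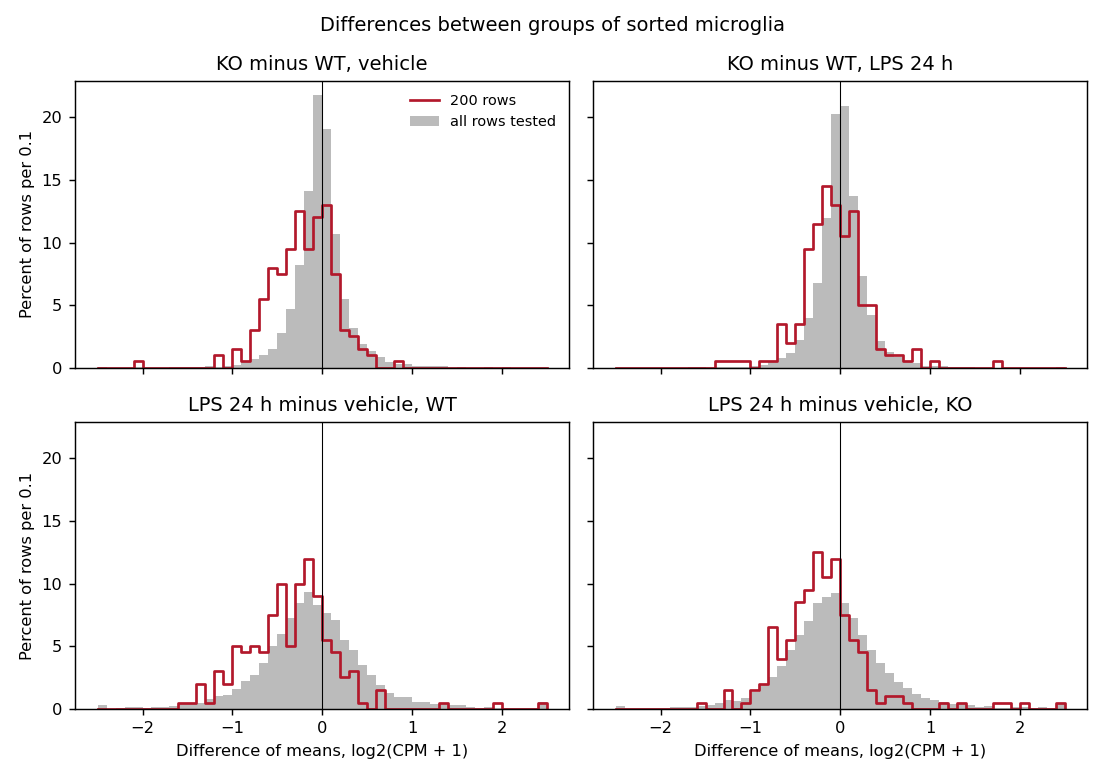
Differences between group means of sorted microglia in log2(CPM + 1) (x axis, values beyond 2.5 shown in the end bins) as a percent of rows per bin of 0.1 (y axis), for the 200 rows (red line) and all 15344 rows tested (grey). The 200 rows centre at -0.20 and -0.08 for KO minus WT with vehicle and after 24 h of LPS, and at -0.30 and -0.22 for LPS 24 h minus vehicle in WT and KO.

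Of the 200 rows, 169 passed the filter on low counts and were tested in sorted cells; 83.7% of all rows tested in culture passed it too. The other 31 had 9 to 137 counts over all 33 libraries. With vehicle, 0 of the 169 differed between KO and WT at an adjusted p of 0.05 (edgeR quasi-likelihood test, Benjamini-Hochberg adjustment over all rows), where 0.0261% of all rows did (0.0196% higher and 0.00652% lower in KO). Unadjusted p was under 0.05 for 9 of them (5.33%, against 4.74% of all rows), and DESeq2 called 1. After 24 h of LPS 0 were called, beside 0.0196% of all rows (0.013% higher, 0.00652% lower), with 14 under an unadjusted p of 0.05 (8.28%, against 5.28%), and DESeq2 called 1. After 6 h in males 0 were called, beside 0.0196% of all rows (0.00652% higher, 0.013% lower), with 5 under 0.05 (2.96%, against 2.89%) and 0 by DESeq2.

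A call that misses the threshold does not show that a row did not differ; the intervals give the range of each difference. The upper end of the 95% interval of KO minus WT was set against 1.5, the lowest K the rule allowed. It was lower for 132 of the 169 rows with vehicle, for 137 after 24 h and for 77 after 6 h. Over all rows tested this held for more, at 86.9%, 89.5% and 76.8%. The intervals are of edgeR's log2 fold change and K is a difference of log2(CPM + 1), so the scales differ. Every chosen row had a K of at least 2.56, so 1.5 is not the size of their difference in culture. The interval lay wholly below 0 for 8, 9 and 2 rows, and wholly above 0 for 1, 5 and 3. No share over all rows was computed for either direction, so nothing is read from these counts. The rows were measured less precisely than most: their median SE with vehicle was 0.59 against 0.26 for all rows, at a median of 1.67 against 3.93 log2 CPM.

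The lowest adjusted p with vehicle belonged to row 13355, which went the opposite way to culture. It stood at 8.31, 18.9 and 33.1 CPM (lowest, median, highest) in sorted WT and at 1.19, 3.30 and 10.3 CPM in sorted KO libraries. The ranges overlapped in part, and the log2 fold change was -2.33 ± 0.57 (SE) with an adjusted p of 0.575 by edgeR. In vehicle cultures the same row was at 8.49 ± 6.47 CPM in WT and 54.7 ± 15.8 CPM in KO (n = 6 each). DESeq2 gave it an adjusted p of 0.0243, and over its 20 alternatives the adjusted p ran from 0.0243 to 1.00.

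Row 5567 had the lowest adjusted p after 24 h of LPS, and it rested on a few KO libraries. Its 7 KO libraries held 0.795, 2.45, 2.55, 2.73, 61.6, 107 and 149 CPM, and its 8 WT libraries 0.510 to 7.17 CPM with a median of 3.25. The high values came from KO males 1 and 2 and KO female 2, and the other 4 KO libraries lay within the WT range. KO minus WT was 3.79 ± 0.84 with an adjusted p of 0.256 by edgeR; it passed without the filter on low counts (0.00544) and by DESeq2 (0.00257), within a range of 0.00257 to 1.00 over 23 alternatives. In KO cells it rose with LPS by 3.99 ± 0.95 (adjusted p 0.00285, edgeR), and this call was lost without KO female LPS 24 h replicate 2, at 1.79 with an adjusted p of 0.117, and within the first (0.105) and second (0.714) runs of library numbers. The difference between the genotypes in this response was 3.88 ± 1.25 with an adjusted p of 1.00. At 6 h the lowest adjusted p was 1.00, for row 267, at 1.04 to 1.19 CPM in WT and 2.67 to 14.9 CPM in KO males.

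Injected LPS moved some of the rows that cultured cells had kept within the window. After 24 h in WT, 19 of the 169 rows passed (11.2%, against 25.9% of all rows tested), of which 4 rose (14.1% of all rows rose) and 15 fell (11.9% fell). In KO, 15 passed (8.88%, against 23.4%), of which 6 rose (12.6% of all rows) and 9 fell (10.8%). Across all 200 rows the median difference was -0.30 in WT, with 162 rows below 0, and -0.22 in KO, with 150 below; over all rows tested it was -0.12 and -0.08. Their lower share of calls goes with the lower level and larger SE given above, and the part of these in it was not tested. Without WT male vehicle replicate 2 the count in WT was 12, and without KO male vehicle replicate 1 or without KO female LPS 24 h replicate 2 the count in KO was 9. Within the first and second runs of library numbers it was 15 and 13 in WT and 6 and 3 in KO. Over all rows tested, leaving out 1 library gave 3433 to 4086 calls in WT and 2941 to 3664 in KO. The first and second runs gave 2382 and 1879 in WT and 2217 and 1146 in KO.

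Between the genotypes, 3 rows rose in both and 6 fell in both, of 25 called in either, and none was called in opposite directions. These 9 rows were 47.4% of those called in WT and 60% of those called in KO, against 68% and 75.3% over all rows tested, where 2706 were called the same way in both. The test of the difference in the 24 h response between KO and WT called 0 of the 169 and 0% of all rows by edgeR. Unadjusted p was under 0.05 for 8 of the 169 and 537 of all rows; DESeq2 called 0 and 10.

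Row 20529 had the clearest response to injected LPS. It stood at 6.07, 9.12 and 11.4 CPM (lowest, median, highest) in WT vehicle libraries and at 150, 230 and 256 CPM after 24 h. The groups were far apart, with a log2 fold change of 4.73 ± 0.36 and an adjusted p of 6.41e-10 by edgeR, past the threshold in all 22 alternatives. In KO it went from 6.62, 13.3 and 37.0 CPM to 143, 246 and 328 CPM, by 3.99 ± 0.34 with an adjusted p of 8.03e-09, past the threshold in all 21 alternatives. The difference between these responses was -0.75 ± 0.43, with an adjusted p of 1.00.

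The same row lay within the window of the rule when cultured cells met LPS for 6 h. In WT cultures it was at 5.49 ± 4.34 CPM with vehicle and 9.08 ± 5.24 CPM with LPS (n = 6 each), and in KO cultures at 37.0 ± 10.4 (n = 6) and 40.3 ± 14.4 CPM (n = 5). The route, the dose, the age of the mice and, for the 24 h libraries, the time all differ between these settings and cannot be told apart.

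Row 2913, the row with the largest K, was nearly silent in sorted vehicle libraries and came up after LPS. The 6 WT vehicle libraries held 1 count of it between them and the 6 KO vehicle libraries 9 counts. After 24 h the 8 WT libraries ran from 0.162 to 16.3 CPM with a median of 2.43, and the 7 KO libraries from 0.545 to 10.7 CPM with a median of 2.22. The rise passed in WT (adjusted p 0.000821, edgeR) and in KO (adjusted p 0.0115), and no fold is given in WT because of the single vehicle count. In WT the call was lost within the second run of library numbers (adjusted p 0.0559). In KO the call was lost without KO female LPS 24 h replicate 1 (adjusted p 0.0529) and within the first (0.0560) and second (0.228) runs of library numbers, over a range of 0.00106 to 0.228.

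Among rows that fell, row 7589 did so in both genotypes. Its WT libraries went from 79.2, 91.4 and 131 CPM with vehicle to 37.3, 42.7 and 49.8 CPM after 24 h. The groups did not overlap, with a log2 fold change of -1.02 ± 0.25 and an adjusted p of 0.00327 by edgeR. In KO it went from 88.4 ± 16.6 (n = 6) to 44.4 ± 13.1 CPM (n = 7), with 1 LPS library at 63.7 CPM above the lowest vehicle library at 60.4 CPM, by -0.89 ± 0.26 with an adjusted p of 0.0147. In KO cultures it lay at 30.5 to 61.1 CPM in all 16 libraries, whatever the treatment. Within the first and second runs of library numbers the KO call was lost, with adjusted p values of 0.0511 and 0.0933.

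The rows called lower with the largest folds had low levels after LPS, under 1 CPM on average. In WT, row 16665 went from 6.07 ± 7.89 CPM to 0.829 ± 0.951 CPM, by -2.54 ± 0.93 (adjusted p 0.0450, edgeR). This call was lost on leaving out WT male vehicle replicate 1 or 2, female vehicle replicate 3, male LPS 24 h replicate 2, 3 or 4, or female LPS 24 h replicate 1, 2 or 3, with adjusted p values up to 0.237, and with the replicate number as a block (0.0587). Row 2115 went from 3.71 ± 2.09 to 0.871 ± 0.673 CPM, by -1.93 ± 0.52 (adjusted p 0.00641), and kept its call whichever library was left out, though not within the second run of library numbers (0.394). In KO, row 7634 went from 1.30 ± 0.629 to 0.289 ± 0.421 CPM (adjusted p 0.0356) and row 2937 changed by -1.66 ± 0.56 (adjusted p 0.0309). The call of row 7634 was lost without KO male vehicle replicate 1 or 2, female vehicle replicate 2 or 3, male LPS 24 h replicate 1 or 2, or female LPS 24 h replicate 1 or 2 (adjusted p up to 0.0924). That of row 2937 was lost without male vehicle replicate 1 or 2, female vehicle replicate 2, male LPS 24 h replicate 4, or female LPS 24 h replicate 2 or 3 (adjusted p up to 0.0949). Both KO calls were also lost without the filter on low counts (0.0580 and 0.0769). Neither held within a single run of library numbers, and that of row 16665 was lost within the second.

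**Figure D5:**
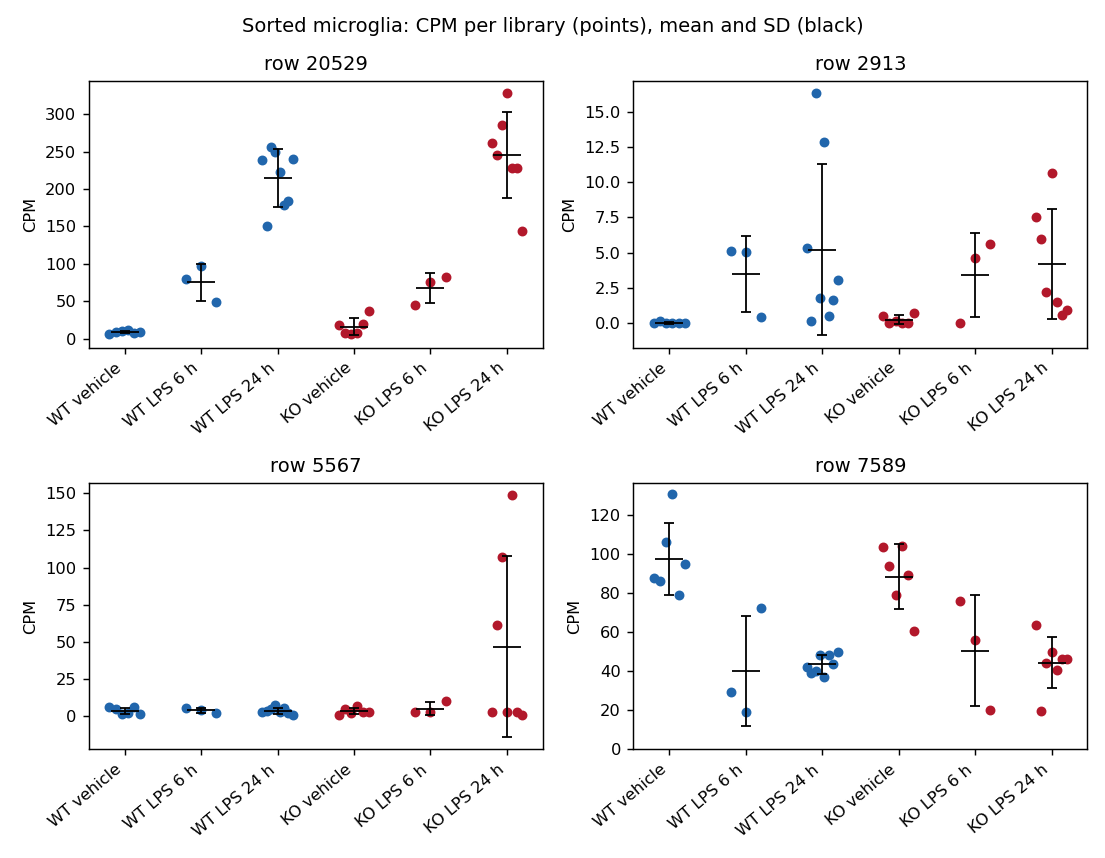
CPM of rows 20529, 2913, 5567 and 7589 (y axis, linear) in each sorted library, by genotype and treatment (x axis), with WT in blue, KO in red and mean and SD in black. Row 20529 is higher in each LPS library than in any vehicle library, row 5567 is high in 3 of 7 KO libraries at 24 h, and row 7589 is lower at 24 h than with vehicle in WT without overlap.

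After 6 h of LPS in males, 5 of the 169 rows were called in WT (10.5% of all rows), 3 higher (6.73% of all rows) and 2 lower (3.73%). In KO 4 were called (7.12% of all rows), all higher (4.27% of all rows, with 2.85% lower). Single libraries moved these counts: WT had 2 without vehicle replicate 1 or 2 or LPS 6 h replicate 1 or 2, and 9 without LPS 6 h replicate 3. KO had 1 without vehicle replicate 1 or 3, 0 without vehicle replicate 2 or LPS 6 h replicate 2 or 3, and 9 without LPS 6 h replicate 1. Over all rows tested, leaving out 1 library gave 413 to 3002 calls in WT and 134 to 2343 in KO. Row 20529 was among the rows called in both genotypes. In WT it was at 80.0, 97.4 and 48.7 CPM against 6.07, 9.18 and 9.05 CPM with vehicle, higher by 3.16 ± 0.49 (adjusted p 0.000244, edgeR), a call lost when the compared groups were fitted alone (0.0503). In KO it was at 44.8, 75.5 and 81.8 CPM against 6.92, 6.62 and 37.0 CPM, higher by 1.88 ± 0.46 (adjusted p 0.0148). The KO call was lost without KO male vehicle replicate 1 or 2 or LPS 6 h replicate 2 or 3, at adjusted p values up to 0.0933, and with the compared groups alone (0.247).

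Row 7659 was higher at 6 h in both genotypes as well, by 2.87 ± 0.91 in WT (adjusted p 0.0419) and 3.23 ± 0.94 in KO (adjusted p 0.0366, edgeR). Its 6 h libraries held 37.0, 18.4 and 4.48 CPM in WT and 3.17, 20.8 and 27.3 CPM in KO. The low value in each genotype is the library that lay nearer to vehicle over all rows. Each call was lost on leaving out any library compared other than that low one (adjusted p up to 0.238 in WT and 0.170 in KO) and with the compared groups alone (0.117 and 0.180). It held when both of those libraries were left out, at adjusted p values of 0.00558 and 0.00387. In WT, row 7589 fell by 1.22 ± 0.39 (adjusted p 0.0439). Row 6900 fell by 2.60 ± 0.81 (adjusted p 0.0393). The call of row 7589 was lost without any library other than LPS 6 h replicate 3 (adjusted p up to 0.250), and that of row 6900 without any other than vehicle replicate 3 (up to 0.271). Both calls were also lost with the replicate number as a block (0.0573 and 0.0546) and with the compared groups alone (0.177 and 0.140). That of row 6900 was lost too without the filter on low counts (0.0537) and without both libraries nearer to vehicle (0.0862).

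Leaving out both libraries nearer to vehicle, a choice made after seeing the data, raised the number of rows called at 6 h to 8 in WT, with 4 higher and 4 lower, and to 10 in KO, with 6 higher and 4 lower. The counts over all rows rose with it, from 1604 to 3210 in WT and from 1093 to 2677 in KO. KO minus WT at 6 h still called 0. Across all 200 rows, LPS 6 h minus vehicle had a median of -0.17 in WT males, with 133 rows below 0, and of 0.22 in KO males, with 127 above 0, where the medians over all rows tested were 0.03 and 0.07; this difference between the genotypes was not tested. The 6 h libraries form a run of library numbers of their own, so that run and the 6 h time cannot be told apart.

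Between sorted males and females with vehicle, 0 of the 169 rows were called by edgeR, where 0.0587% of all rows were (0.0326% higher and 0.0261% lower in males). Unadjusted p was under 0.05 for 5 of them (2.96%, against 7.69% of all rows), and DESeq2 called 0. The lowest adjusted p was 0.414, for row 1461, higher in males by 1.47 ± 0.48.

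With the table divided into 4 equal stretches, the first held 133 of them (66.5%, against 58.4% of all rows tested in culture), the second 63 (31.5%, against 30.7%), the next 0 (0%, against 5.34%) and the last 4 (2%, against 5.61%). There were 2 pairs at adjacent positions among them, and no share over all rows was computed to set beside this.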

How the data were processed

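Bulk RNA sequencing of 34 cultured and 33 sorted microglia libraries was used. The authors deposited unnormalized counts per row, 1 table for each set. Per the submitters' processing notes, Salmon 1.10.1, STAR 2.7.10a and Trim Galore 0.6.7 were used, and the mouse build was GRCm38; their roles are not given in the sources used here. The tables carry no row names; rows were matched by position, and 0 sample columns were left unused. A text deposited with the sorted libraries describes cultured cells; the sample labels were followed.

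Levels are CPM, and differences of levels use log2(CPM + 1). Tests used edgeR 4.0.16 in R 4.3.3: TMM scaling, filterByExpr (minimum count 10, minimum total 15), a quasi-likelihood fit over all groups of a table, sexes weighted equally, and Benjamini-Hochberg adjustment over all rows with a threshold of 0.05. limma 3.58.1 and DESeq2 1.42.0 were also used, with DESeq2 as an alternative. Scripts ran in python 3.11.15 and were tested on simulated data. Other alternatives were other scaling, no filter, a replicate block, the compared groups alone, the run of library numbers as a covariate, each run alone, other limits of the rule, and leaving out each library. Depth sets counting error, so rows of low count have wide intervals.

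Named rows are those with the largest K, those most abundant in KO cultures and in sorted WT cells, in each comparison up to 2 called rows per direction by fold (or the lowest adjusted p where none was called), and those at the edges of the rule. The rows, lists and rules were chosen with earlier results of these data known.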

Additional observations from a re-analysis of the deposited data

Results flagged for a closer look

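Among sorted WT females after 24 h of LPS, replicate 1 had the lowest summed CPM of the 200 rows, at 1124, and lay far from the other 3 libraries, at 1625 to 1701. Its gap to the nearest library was 0.868 of the range of the group (n = 4). In 13 groups of 4 to 10 samples examined this way, chance would single out about 1 in 20 groups.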

How the results depend on the processing

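Counts of the 200 rows called that moved by over 1.5 times were as follows. KO minus WT gave 1 with DESeq2 with vehicle, and 1 without the filter and 1 with DESeq2 after 24 h of LPS, against 0. LPS for 24 h in KO gave 6 within the first and 3 within the second run of library numbers, against 15. LPS for 6 h in WT males gave 3 with the replicate block, 0 with the compared groups alone, 11 with DESeq2 and 8 without both libraries nearer to vehicle, against 5; in KO males it gave 0, 8 and 10 under the last 3, against 4. That last setting was chosen after seeing the data. Leaving out 1 library gave 12 to 22 for LPS 24 h in WT, 9 to 18 in KO, 2 to 9 for LPS 6 h in WT and 0 to 9 in KO. Rows passing the rule numbered 1793 with K of at least 1, 621 with K of at least 2, 302 with a window of 0.5, and 1035 to 1271 without 1 library, against 1123. Row 8572 reversed for KO minus WT with vehicle, to -0.034 within the second run. The cause was not tested, beyond fewer samples in single runs.

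Over all rows tested, LPS 24 h called 3981 in WT (2382 and 1879 within the runs) and 3596 in KO (2217 and 1146). Without 1 library these ran from 3433 to 4086 in WT and from 2941 to 3664 in KO. LPS 6 h called 1604 in WT and 1093 in KO, with 0 and 0 for the groups alone, 3210 and 2677 without both libraries, and 1853 in KO with DESeq2; without 1 library they ran from 413 to 3002 in WT and from 134 to 2343 in KO. KO minus WT called 4 with vehicle (21 with DESeq2, 20 within the second run), 3 after 24 h (7 without the filter, 15 with DESeq2) and 3 after 6 h (7 without the filter, 11 with DESeq2, 0 for the groups alone). The difference in response called 0 (1 without the filter, 10 with DESeq2, 1 with the run as a covariate, 2 within the first run). Sex called 9 in sorted cells (49 with DESeq2, 17 within the second run) and 2 in culture (8 with DESeq2, 10 without WT female culture 3).

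Over all pairs of a comparison, same-numbered samples did not all deviate together, so the numbers were not taken to pair samples. Correlations of their deviations were -0.363 to 0.221 for KO with WT (16 sorted pairs, 4 over 0.1), -0.103 to 0.185 for LPS 24 h with vehicle (12 pairs, 3 over 0.1, all of them WT females), -0.035 to 0.029 for LPS 6 h (6 pairs), and -0.097 to 0.079 for sorted and -0.167 to 0.365 for cultured males with females (6 pairs each, 0 and 5 over 0.1). Their own number correlated best for 16 of 32, 10 of 24, 3 of 12, 6 of 12 and 9 of 12 samples. With the replicate block, of the 200 rows 17 and 12 were called for LPS 24 h in WT and KO, 3 and 3 for LPS 6 h, and 0 in the other comparisons. The counts over all rows with this block are not given here, so nothing is read from these.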
